A study of Arabidopsis thaliana with 6 samples.

Results

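The windows described here are 300 bp stretches inside protein-coding genes of Arabidopsis thaliana whose CHH methylation depended on the RNA polymerase IV subunit NRPD1. The 5 nuclear chromosomes were cut into windows without overlap, and a window was covered when it held at least 10 CHH cytosines (H is A, C or T) in each of 6 bisulfite libraries. A window was chosen by its readout: its pooled CHH level, the methylated reads as a percent of all reads over its listed CHH cytosines, was at least 10 percentage points lower in nrpd1-3 than in plants with full-length NRPD1. Of 278507 covered windows 6805 met this rule, and 672 of those had their midpoint between the start and end of a protein-coding gene. They lay in 481 genes, with 188 windows in coding exons, 207 in untranslated exons and 277 in introns. The rule chose 2.44% of all covered windows and 0.377% of the 178440 covered windows in protein-coding genes.

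All libraries came from above-ground tissue of 2.5-week-old Col-0 plants kept under a day of 16 h light and 8 h dark, and all carried the nrpd1-3 mutation. NRPD1ΔCTD plants (labelled nrpd1dDeCL, 2 libraries) carried a FLAG-tagged NRPD1 transgene without the C-terminal domain, which resembles the DEFECTIVE CHLOROPLASTS AND LEAVES protein. nrpd1-3 plants (2 libraries) carried no transgene. Full-length NRPD1 plants (labelled NRPD1FL, 2 libraries) carried the intact FLAG-tagged genomic clone, driven by its native promoter. The library titles of the full-length group name another subunit, NRPE1FL, while the transgene field says NRPD1FL, and the transgene field was followed. No wild type was analysed here, so the full-length transgene is the upper level in every comparison. The labels do not say whether each transgene was measured in 1 line or several.

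NRPD1 is the largest subunit of Pol IV, a plant polymerase whose short transcripts are made double-stranded by RDR2, cut into small interfering RNAs by DCL3 and used, through ARGONAUTE proteins and Pol V transcripts, to guide the methyltransferase DRM2. This pathway is called RNA-directed DNA methylation, and CHH methylation that has to be placed anew after each replication is its usual mark. Transposons and repeats outside genes are its best known targets. CHH methylation is low over most transcribed genes, and the exceptions often lie at gene ends or over insertions in introns.

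The deposited files held 12654903 to 13819039 CHH cytosines per library, each with at least 5 reads, at a mean of 15.2 to 16.3 reads. The 177768 other covered windows of protein-coding genes did not meet the rule and had low levels. These were 1.35 and 1.24% in NRPD1ΔCTD, 1.74 and 1.16% in nrpd1-3, and 1.32 and 1.26% in full-length NRPD1. The first nrpd1-3 library thus stood above the other 5 in these windows. Libraries of a group were described as independent biological replicates, and tests that count reads measure sampling within them.

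To show which cytosines carried the signal, 30-base stretches are printed from 6 of the 448 windows with at least 20 CHH cytosines in every library: the 2 with the largest difference between nrpd1-3 and full-length NRPD1 in an untranslated exon, the largest in a coding exon and in an intron, the window in which NRPD1ΔCTD fell furthest below full-length NRPD1, and the one in which it stood furthest above. Each is the stretch with the highest level in full-length NRPD1 in its window, among those with at least 5 CHH cytosines listed in all 6 libraries, so its level there was fixed by the choice. Capitals mark CHH cytosines with at least 20% methylated reads in full-length NRPD1. The sequences are RefSeq's, in TAIR10 coordinates, and run 5′ to 3′ on the stated strand.
AT3G54730, coding exon, chr3:20260390-20260419, plus strand: ttgttgaaCCatttCtCCattgttggagag
AT5G24990, untranslated exon, chr5:8611734-8611763, plus strand: aaggtcggCCattcggttggagaagaCaCC
GLC, untranslated exon, chr1:24317451-24317480, minus strand: cgtCtCaagcgtCaCtcgaaccggcgaCCt
AT1G48725, intron, chr1:18019685-18019714, minus strand: CCatgtgagagaCtattgatggaaatgCtC
AT1G53640, intron, chr1:20024322-20024351, plus strand: aaattttgggtggaCctgtaCatcagCtCC
AT5G52070, coding exon, chr5:21162126-21162155, minus strand: CaatttgCCCaatttggaagggCaaattga

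In the AT3G54730 stretch 42.2 and 39.4% of reads were methylated in the NRPD1ΔCTD libraries, 6.12 and 0% in nrpd1-3, and 90.7 and 77.2% in full-length NRPD1. The GLC stretch had 68.1 and 60.3% in NRPD1ΔCTD, 7.5 and 6.52% in nrpd1-3, and 70.1 and 74.1% in full-length NRPD1. The AT1G53640 stretch had 1.61 and 0% in NRPD1ΔCTD, 0 and 0% in nrpd1-3, and 37 and 54.1% in full-length NRPD1. The AT5G24990 stretch had 49.4 and 45.8% in NRPD1ΔCTD, 7.5 and 0% in nrpd1-3, and 70.8 and 68.4% in full-length NRPD1. The AT1G48725 stretch had 54 and 51% in NRPD1ΔCTD, 1.56 and 1.87% in nrpd1-3, and 74.6 and 72.8% in full-length NRPD1. The AT5G52070 stretch had 60.4 and 47.8% in NRPD1ΔCTD, 34.1 and 23.5% in nrpd1-3, and 47.6 and 43.2% in full-length NRPD1. These stretches span the range of responses among the windows, with NRPD1ΔCTD between the other groups, near or above full-length NRPD1, or close to nrpd1-3.

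Over all 672 windows NRPD1ΔCTD regained 66.4% of the CHH methylation that separated nrpd1-3 from full-length NRPD1. The read-weighted level was 19.0 and 18.7% in the NRPD1ΔCTD libraries, 6.13 and 5.80% in the nrpd1-3 libraries and 25.6 and 25.2% in the full-length NRPD1 libraries. The NRPD1ΔCTD libraries lay between those of the other groups, whose separation the rule fixed, and libraries of a group lay close together. The mean was 18.9 ± 0.259% in NRPD1ΔCTD, 5.97 ± 0.233% in nrpd1-3 and 25.4 ± 0.291% in full-length NRPD1 (SD, n = 2 each). An exact two-sided permutation test gave p = 0.33 for NRPD1ΔCTD against nrpd1-3 and the same against full-length NRPD1, which is the smallest p that 2 libraries against 2 allow. The regained share is the difference of NRPD1ΔCTD from nrpd1-3 as a percent of that of full-length NRPD1 from nrpd1-3. It was 67.3 and 65.4% in the 2 NRPD1ΔCTD libraries, a mean of 66.4 ± 1.33% (SD). Here and below, the nrpd1-3 and full-length means were held fixed in this share, so its SD leaves out the spread of those libraries.

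**Figure D1:**
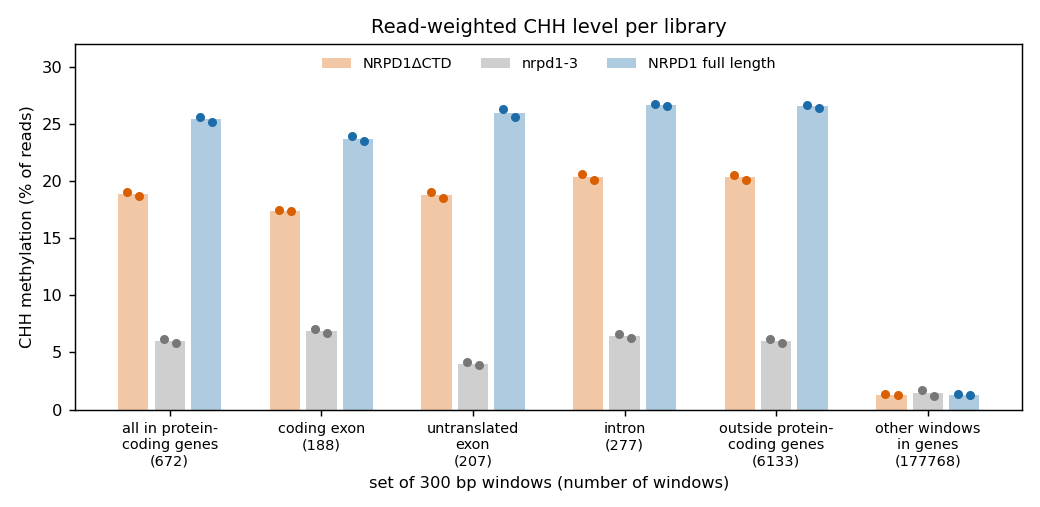
Read-weighted CHH methylation (y axis, percent of reads) per library for the windows in protein-coding genes, their 3 classes, Pol IV-dependent windows outside protein-coding genes and the other covered windows of protein-coding genes (x axis). Bars are means of 2 libraries and points are libraries; NRPD1ΔCTD lies between nrpd1-3 and full-length NRPD1 in every Pol IV-dependent set (18.9, 5.97 and 25.4% over the 672 windows), and all groups lie below 2% in the other windows.

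Because the nrpd1-3 and full-length libraries also chose the windows, the levels were measured again in libraries that had no part in the choice. Of 689 windows chosen on the first library of each of these groups, the second libraries had 18.5% in NRPD1ΔCTD, 6.10% in nrpd1-3 and 24.5% in full-length NRPD1, a regained share of 67.5%. Of 679 windows chosen on the second libraries, the first had 19.1% in NRPD1ΔCTD, 6.41% in nrpd1-3 and 25.4% in full-length NRPD1, a regained share of 66.8%. The 10-point difference was met again in the held-out pair by 561 windows, 81.4% and 82.6% of those chosen. These are the same 561 in both directions, so the percentages are not separate results. Outside protein-coding genes 80.5 and 79.8% met it again. By class the shares were 72.7 and 76.2% in coding exons, 87.4 and 87.4% in untranslated exons, and 83.1 and 83.4% in introns.

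Read depth over the windows moved with the groups. They took 0.257 and 0.245% of all CHH reads in NRPD1ΔCTD, 0.167 and 0.161% in nrpd1-3 and 0.296 and 0.285% in full-length NRPD1, while the other windows of protein-coding genes took 45.0 to 47.4% in each library. The median window held 41 and 43 listed CHH cytosines in NRPD1ΔCTD, 31 and 32 in nrpd1-3 and 49 and 47 in full-length NRPD1. When only cytosines listed in all 6 libraries were used, an alternative chosen after seeing the data, 501 windows met the rule and the regained share was 65.2%. The part of depth in the levels was not tested further.

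Against nrpd1-3, NRPD1ΔCTD was higher in most of the windows. Logistic regression of methylated and unmethylated reads called 344 of the 672 higher (Benjamini-Hochberg adjusted p of 0.01 or less over all covered windows and a difference of at least 10 points) and 0 lower, where 1.5% of all covered windows were called higher. Both NRPD1ΔCTD libraries lay above both nrpd1-3 libraries in 635 windows (94.5%), against 18% of all covered windows. The pooled difference was above 0 in 670 windows, with a median of 10.1 points and a range of -0.711 to 56.8 points. By class, 76 of 188 coding exon windows (40.4%), 107 of 207 untranslated exon windows (51.7%) and 161 of 277 intron windows (58.1%) were called. limma on arcsine square-root levels with a variance trend on depth, which uses the spread between libraries and was added after seeing the data, called 285 of the 672 higher (1.18% of all covered windows). limma on log2 ratios and a quasi-binomial F test called 0 of the 672 and 0 of all covered windows. Of the 344 windows with a 10-point difference, 338 and 280 had an unadjusted p under 0.05 in these tests. The share of all covered windows under that p was not measured. These windows share the nrpd1-3 libraries with the rule, so the counts describe them and are not independent of the choice.

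Against full-length NRPD1, NRPD1ΔCTD was lower in most windows, by less than it was higher than nrpd1-3. The pooled difference was below 0 in 646 windows (96.1%), with a median of -6.76 points and a range of -31.0 to 6.99 points. In 514 windows (76.5%) neither NRPD1ΔCTD library reached the lower full-length library, against 17.7% of all covered windows. Logistic regression called 186 windows lower (27.7%) and 0 higher, where 0.541% and 0.014% of all covered windows were called lower and higher. The calls fell on 50 coding exon windows (26.6%), 58 untranslated exon windows (28.0%) and 78 intron windows (28.2%). With the spread between libraries in the test, limma on arcsine levels called 5 lower (0.0244% of all covered windows). Of the 189 windows with a 10-point difference, 183 had an unadjusted p under 0.05 in that test. These 189 were picked for their difference, so the unadjusted counts describe them and lend the loss no support. limma on log2 ratios and the quasi-binomial F test called 0 of the 672 and 0 of all covered windows. In these tests 91 and 93 of the 189 had an unadjusted p under 0.05. The share of all covered windows under that p was not measured. The full-length libraries were part of the rule, which chose windows where they were high. In held-out libraries NRPD1ΔCTD was below full-length NRPD1 in 85.8% and 90% of the windows chosen on the other pair. Windows chosen in the same way outside protein-coding genes had similar shares, 85.9% and 84.6%. The share over all covered windows was not measured for held-out libraries.

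**Figure D2:**
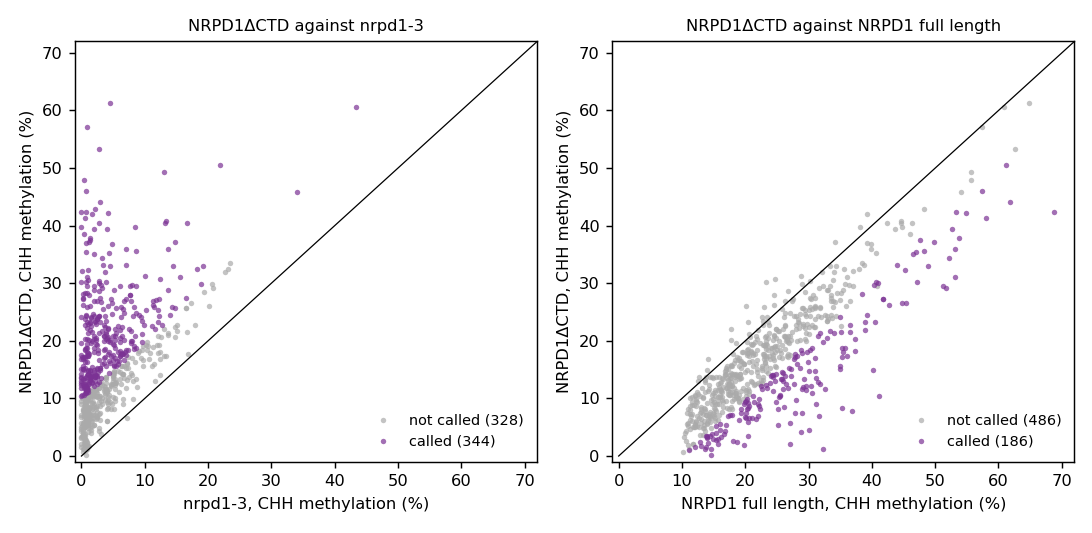
Pooled CHH methylation of each of the 672 windows in NRPD1ΔCTD (y axes, percent) against nrpd1-3 (left) and against full-length NRPD1 (right). The line marks equal levels and colour marks the calls of logistic regression, 344 higher than nrpd1-3 and 186 lower than full-length NRPD1; the empty strip left of 10% on the right comes from the rule.

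Setting both calls together, 257 windows were called higher than nrpd1-3 and not called lower than full-length NRPD1, 87 were called in both comparisons, 99 were called lower than full-length NRPD1 only, and 229 were called in neither. Over all 278507 covered windows these counts were 3317, 854, 654 and 273682. Window by window the regained share had a median of 61.6%, with quartiles at 43.7 and 77.6%. It was under 25% in 61 windows (9.08%) and at least 90% in 60 (8.93%). Among the 6133 Pol IV-dependent windows outside protein-coding genes 5.58% were under 25% and 12.6% were at 90% or more.

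Coding exon windows had the lowest regained share. Their level was 17.4% in NRPD1ΔCTD, 6.88% in nrpd1-3 and 23.7% in full-length NRPD1, a regained share of 62.6 ± 0.263% (SD, n = 2). Untranslated exon windows had 18.8% in NRPD1ΔCTD, 4.00% in nrpd1-3 and 26.0% in full-length NRPD1, a share of 67.3 ± 1.64%. Intron windows had 20.4% in NRPD1ΔCTD, 6.41% in nrpd1-3 and 26.7% in full-length NRPD1, a share of 68.9 ± 1.86%. The share in coding exons was below that in introns by 7.49 and 5.24 points in the 2 NRPD1ΔCTD libraries. An exact paired permutation test gave p = 0.5, the smallest that 2 libraries allow. The SDs leave out the spread of the nrpd1-3 and full-length libraries. In windows chosen on one pair of libraries and measured in the other, the share was 64.9 and 61.4% in coding exons. It was 67.9 and 67.9% in untranslated exons, and 69.6 and 70.5% in introns. Among windows with at most 20% of their bases in repeated sequence the share was 62.2% in coding exons, 62.1% in untranslated exons and 66.0% in introns, so the untranslated exons stood with the coding exons there.

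Pol IV-dependent windows outside protein-coding genes had a slightly higher regained share than those inside. The share inside was lower by 3.55 and 3.2 points in the 2 NRPD1ΔCTD libraries, a mean difference of -3.37 ± 0.248 points (exact paired permutation test, p = 0.5, the smallest possible). Within chromosome arms, where 472 of the windows lay, the difference was -5.0 and -3.58 points, and within the pericentromeric heterochromatin it was 0.37 and -1.38 points. The difference shrank to -1.18 points when windows with over 20% repeated sequence were left out of both sets.

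The windows were unevenly placed in genes. Untranslated exons held 30.8% of them and 14.9% of the covered windows in genes, introns 41.2 and 26.7%, and coding exons 28.0 and 58.3%. The midpoint lay under 300 bp from an end of the gene in 327 windows (48.7%), against 20.2% of the other covered windows in genes. Their genes were also shorter, with a median length of 2207.5 bp over these windows and 2955 bp over the others. The part of gene length in the positions was not tested. Of all covered windows in genes, 0.904% were Pol IV-dependent within 300 bp of a gene end, and 0.177% in the bin farthest from both ends. Near the gene start 170 windows lay under 300 bp away, and near the gene end 190. A position near the end leaves room outside: 208 of the windows reached past the gene, and 114 touched a Pol IV-dependent window outside protein-coding genes. Levels near gene ends were 18.6% in NRPD1ΔCTD, 5.97% in nrpd1-3 and 25.7% in full-length NRPD1, close to those of the whole set.

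Intron windows sat in long introns. The median intron around them was 733.5 bp, against 152 bp for the other covered intron windows, and 104 of 274 (38.0%) were in introns of at least 1000 bp, against 3.22%. Long introns hold more windows each, but the share of their windows that was Pol IV-dependent was also higher: 6.38% in introns of 1000 bp or more, 0.869% from 300 bp to under 1000 bp and 0.196% under 300 bp. In the long introns the level was 20.4% in NRPD1ΔCTD, 4.93% in nrpd1-3 and 27.9% in full-length NRPD1.

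Repeated sequence was frequent in the windows. A 25-base word found elsewhere in the genome started at 19.3% of the bases of the median window, against 0% in the other covered windows of genes and 29% in Pol IV-dependent windows outside protein-coding genes. Of the 672 windows 88 (13.1%) held no such word, against 76.2% of the others, and 181 (26.9%) held them at 50% or more of their bases, against 1.48%. The Pol IV-dependent share of covered windows was 0.0649% without repeated words and 6.45% where they started at over 50% of bases. Windows without repeated words had 16.5% in NRPD1ΔCTD, 5.98% in nrpd1-3 and 22.4% in full-length NRPD1, the same order of the groups. Reads from repeated sequence can be placed ambiguously, and their part in the levels was not tested. GC content was 34% in the median window, against 39.3% in the other windows of genes and 31.7% outside genes, and 200 windows (29.8%) were pericentromeric, against 8.24% and 47.0%.

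**Figure D3:**
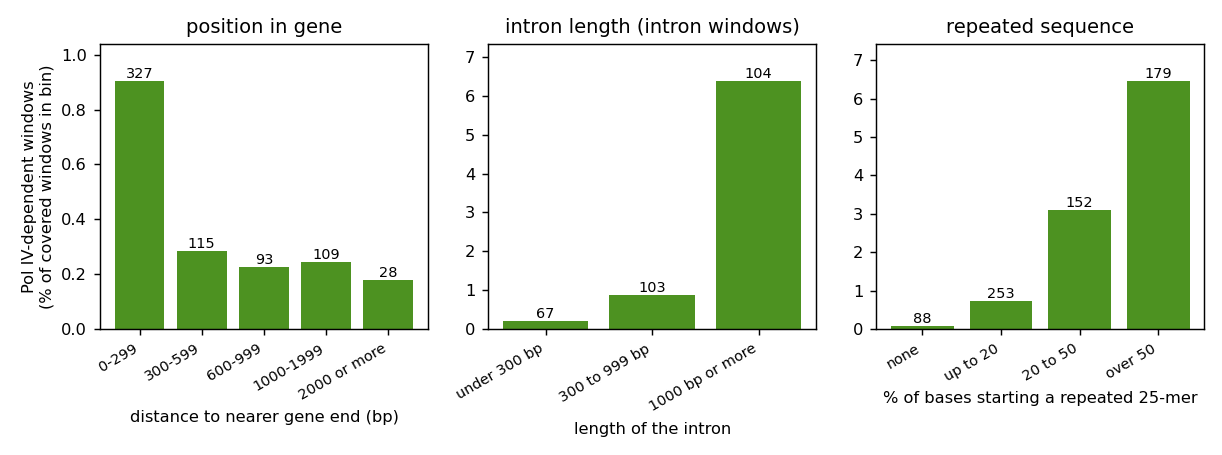
Share of covered windows that were Pol IV-dependent (y axes, percent of covered windows in the bin, from 0) by distance to the nearer gene end, by length of the intron (intron windows only) and by repeated sequence. Numbers over the bars are windows; the share was 0.904% within 300 bp of a gene end, 6.38% in introns of at least 1000 bp and 6.45% where over 50% of bases started a repeated 25-mer.

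The methylated regions extended past single windows. Of 977 covered neighbours 422 (43.2%) were Pol IV-dependent too, 304 of them in the same gene. The windows fell into 517 runs of adjacent Pol IV-dependent windows, 325 of them 1 window long and the longest 11. The average level along the gene fell away from the window on both sides, to 7.91% in NRPD1ΔCTD, 4.67% in nrpd1-3 and 9.29% in full-length NRPD1 at 1500 bp upstream. At 1500 bp downstream it was 8.17% in NRPD1ΔCTD, 5.0% in nrpd1-3 and 9.57% in full-length NRPD1. At the window centre the same measure was 18.7% in NRPD1ΔCTD, 5.83% in nrpd1-3 and 25.1% in full-length NRPD1. Averaged over all classes, the level in nrpd1-3 ran from 4.67 to 6.86% along the 100 bp bins and was highest at 700 bp upstream. The other groups had a peak at the window, whose height the rule set in full-length NRPD1. By class the nrpd1-3 level varied more along these bins. It ran from 4.06 to 9.29% in coding exons, from 2.55 to 7.66% in untranslated exons and from 3.66 to 7.67% in introns.

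**Figure D4:**
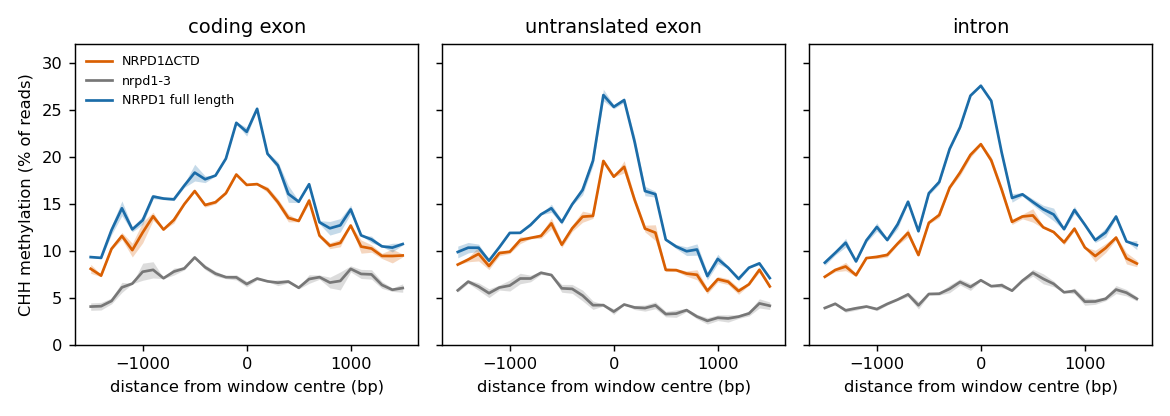
CHH methylation (y axis, percent of reads) in 100 bp bins from 1500 bp upstream to 1500 bp downstream of the window centre (x axis, gene strand left to right) for windows in coding exons, untranslated exons and introns. Lines are means of 2 libraries and bands their range; NRPD1ΔCTD follows the shape of full-length NRPD1 at a lower height, with 18.7 against 25.1% at the centre over all 672 windows.

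Levels differed between sequence contexts within the windows. CTA and CAA, the contexts preferred by CMT2, a CHH methyltransferase outside this pathway, had the highest levels: CTA 30.3% in NRPD1ΔCTD, 12.6% in nrpd1-3 and 38.4% in full-length NRPD1, and CAA 27.6% in NRPD1ΔCTD, 12.2% in nrpd1-3 and 34.5% in full-length NRPD1. CCT and CCC had the lowest, with 11.2% in NRPD1ΔCTD, 1.76% in nrpd1-3 and 16.9% in full-length NRPD1 for CCT. In full-length NRPD1, CTA and CAA were also highest in Pol IV-dependent windows outside protein-coding genes, at 38.5 and 36.2%. A sample of the other windows of genes had them highest too, at 2.35 and 2.47%. The part of CMT2 in these levels was not tested. The regained share in the 672 windows lay between 62.6% (CCT) and 69.3% (CAA) in all 9 contexts. Strand made little difference: cytosines of the sense strand had 18.7% in NRPD1ΔCTD, 5.82% in nrpd1-3 and 25.1% in full-length NRPD1, and those of the template strand 19.1% in NRPD1ΔCTD, 6.13% in nrpd1-3 and 25.7% in full-length NRPD1.

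The coding exon windows with the largest difference between nrpd1-3 and full-length NRPD1, among those with at least 20 CHH cytosines in every library, lay in AT3G54730, AT5G42957, AT5G44270, AT4G11430 and AT1G48953. In AT3G54730, annotated as a transcription repressor, the window at chr3:20260201-20260500 had 27.3 and 25.9% in NRPD1ΔCTD, 6.40 and 2.86% in nrpd1-3, and 45.2 and 44.4% in full-length NRPD1. NRPD1ΔCTD stood midway there, called in both comparisons (adjusted p = 2.23e-90 against nrpd1-3 and 5.84e-65 against full-length NRPD1 by logistic regression, a test of read counts). In AT5G44270, of a family named for the spindle protein TPX2, the window at chr5:17833501-17833800 had 39.3 and 40% in NRPD1ΔCTD, 9.86 and 7.00% in nrpd1-3, and 44.3 and 45.3% in full-length NRPD1. The difference of -5.13 points from full-length NRPD1 was under the 10 points of a call. All 5 windows were called higher than nrpd1-3, and AT5G44270 was the one not called lower than full-length NRPD1. The ranking used the nrpd1-3 and full-length levels, here and in the other classes. Calls of the ranked windows thus describe them and are not independent of the ranking.

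In untranslated exons the largest differences were in AT5G24990, GLC (AT1G65450), WRKY43 (AT2G46130), HR4 (AT3G50480) and AT5G42090. The AT5G24990 window at chr5:8611501-8611800, near the end of a gene for a DUF1336 protein, had 42.3 and 40.1% in NRPD1ΔCTD, 1.08 and 0.197% in nrpd1-3, and 59.2 and 57.0% in full-length NRPD1. WRKY43 encodes a transcription factor of the WRKY family, and its window at chr2:18957601-18957900 had 32.1 and 27.5% in NRPD1ΔCTD, 0.413 and 1.52% in nrpd1-3, and 51.5 and 50.9% in full-length NRPD1. HR4, a relative of the powdery mildew resistance gene RPW8, had 41.9 and 43.8% in NRPD1ΔCTD, 2.66 and 1.68% in nrpd1-3, and 50.5 and 45.3% in full-length NRPD1 at chr3:18734101-18734400. HR4 was the one of the 5 that was not called lower than full-length NRPD1 (difference -5.37 points), and all 5 were called higher than nrpd1-3.

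The 5 intron windows lay in AT1G48725, AT4G03380, AT1G34580, AT4G28570 and AT3G29190. AT1G48725, an uncharacterized protein, had 49.5 and 42.5% in NRPD1ΔCTD, 1.18 and 0.41% in nrpd1-3, and 55.1 and 60% in full-length NRPD1 at chr1:18019501-18019800, in an intron of 877 bp. AT4G03380, also uncharacterized, had 33.8 and 24.5% in NRPD1ΔCTD, 2.68 and 3.70% in nrpd1-3, and 48.9 and 55.4% in full-length NRPD1 at chr4:1487401-1487700. AT3G29190, annotated in the terpenoid cyclase superfamily, had 50.7 and 48.0% in NRPD1ΔCTD, 10.8 and 15.2% in nrpd1-3, and 55.2 and 56.3% in full-length NRPD1. All 5 were called higher than nrpd1-3, and all but AT3G29190 (difference -6.33 points) were called lower than full-length NRPD1.

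Most genes held a single window: 358 of 481 had 1, 83 had 2, 26 had 3, and 14 had 4 to 7. Those with the most were AT2G03330 and AT4G03580 (7 each), AT1G11270, AT5G55565 and EXT10 (6 each), and AT1G56100 and AT5G52070 (5 each), of which AT1G56100 had the larger summed difference and is shown with the first 5. In AT2G03330 all 7 lay side by side in an intron of 4405 bp, at 11.8 to 22.0% in NRPD1ΔCTD, 2.76 to 7.48% in nrpd1-3 and 17.5 to 32.9% in full-length NRPD1. The other 4 covered windows of that gene reached a pooled level of at most 1.51% in any group. In AT5G55565, a defensin-like gene, NRPD1ΔCTD and full-length NRPD1 differed by -2.83 to 0.761 points in the 6 windows, none of which was called lower, while 4 were called higher than nrpd1-3. EXT10 (AT5G06640), an extensin of the cell wall, was Pol IV-dependent in all 6 of its covered windows, 5 of them coding, at 6.93 to 33.0% in NRPD1ΔCTD, 2.49 to 19.3% in nrpd1-3 and 15.0 to 38.0% in full-length NRPD1. Of its windows 2 also lie in a second protein-coding gene, and in AT1G11270, an F-box gene, 4 of 6 overlap a pseudogene and at least 99% of bases start a repeated word.

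**Figure D5:**
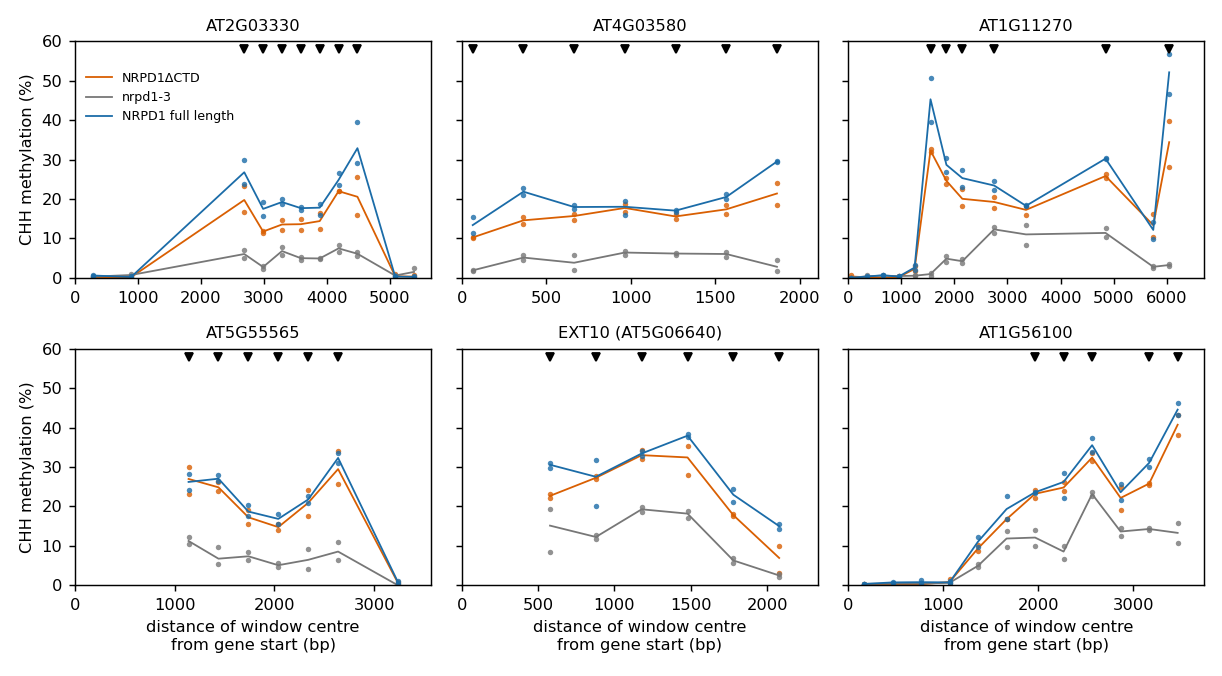
CHH methylation (y axes, percent) in every covered window along 6 genes with 5 to 7 Pol IV-dependent windows each (x axes, distance of the window centre from the gene start). Points are libraries, lines join pooled levels across windows that were not covered too, and triangles mark the Pol IV-dependent windows; in AT2G03330 the 7 marked windows reach 17.5 to 32.9% in full-length NRPD1 and the pooled levels of the 4 others stay at or below 1.51%.

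In some windows NRPD1ΔCTD stayed far below full-length NRPD1. The largest called losses against full-length NRPD1, among windows with at least 20 CHH cytosines in every library and no overlap of the libraries, were in AT1G53640, CYP706A7, PP2-B4, AT1G12020 and AT3G44753. They were chosen by a call of logistic regression and ranked by the difference from full-length NRPD1. Their p-values for that difference thus describe them and are not independent of the choice. In AT1G53640, an uncharacterized protein, the intron window at chr1:20024101-20024400 had 2.15 and 0% in NRPD1ΔCTD, 0.361 and 1.29% in nrpd1-3, and 29.1 and 35.4% in full-length NRPD1. NRPD1ΔCTD overlapped nrpd1-3 there and was 31.0 points below full-length NRPD1 (adjusted p = 2.38e-64 by logistic regression and 0.00485 by limma on arcsine levels). PP2-B4 (AT2G02280), a phloem lectin gene, had 7.26 and 8.81% in NRPD1ΔCTD, 0 and 0.37% in nrpd1-3, and 39.3 and 35.5% in full-length NRPD1 at chr2:600601-600900 (limma on arcsine levels, adjusted p = 0.00362). AT3G44753 had 7.28 and 3.23% in NRPD1ΔCTD, 0.391 and 0.181% in nrpd1-3, and 30.4 and 29.6% in full-length NRPD1 (limma on arcsine levels, adjusted p = 0.00887). The 2 NRPD1ΔCTD libraries disagreed in CYP706A7 (AT4G12330), a cytochrome P450 gene, with 4.00 and 19.3%, against 45.1 and 37.1% in full-length NRPD1.

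The other 2 windows called lower by limma on arcsine levels were in untranslated exons, and are named because they complete the 5. AT2G24870, of the plant self-incompatibility S1 family, had 5.04 and 8.42% in NRPD1ΔCTD, 1.02 and 0.781% in nrpd1-3, and 32.8 and 30.1% in full-length NRPD1. AT2G41650 had 3.47 and 3.36% in NRPD1ΔCTD, 0.484 and 0.502% in nrpd1-3, and 14.6 and 12.9% in full-length NRPD1.

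At the other end NRPD1ΔCTD stood above full-length NRPD1 in pooled level. Among windows with at least 20 CHH cytosines in every library the difference was largest in AT5G52070. In this Agenet domain gene the coding exon window at chr5:21162001-21162300 had 32.4 and 29.2% in NRPD1ΔCTD, 12.9 and 12.0% in nrpd1-3, and 23.9 and 25.5% in full-length NRPD1. NRPD1ΔCTD was 6.16 points higher, less than a call requires. The next 4 were AT5G45920 (5.98 points), ARF23 (2.92 points), AT2G06555 (2.54 points) and ARF15 (2.40 points), and in ARF23 and ARF15, of the auxin response factor family, the libraries of the 2 groups overlapped. No window was called higher than full-length NRPD1, and this is a count of calls, which does not show that the levels were equal.

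None of 212 covered windows in 13 genes of RNA-directed DNA methylation, none of 87 in 6 genes of methylation maintenance and histone H3K9 methylation, and none of 84 in 4 DNA demethylase genes met the rule. At the share of 0.377% over all covered windows in protein-coding genes, 0 is near the background for lists of this size. Of 3 covered genes at loci that the study names, each held 1 window. SDC (AT2G17690), an F-box gene silenced by this pathway, had 13.4 and 14.1% in NRPD1ΔCTD, 3.26 and 6.53% in nrpd1-3, and 19.8 and 17.6% in full-length NRPD1 in the untranslated exon at chr2:7682101-7682400. AT3G28899 (ERT7) had 4.74 and 6.43% in NRPD1ΔCTD, 0.926 and 0.431% in nrpd1-3, and 14.0 and 13.9% in full-length NRPD1. AT5G24240 (ERT9) had 4.76 and 8.74% in NRPD1ΔCTD, 1.34 and 0% in nrpd1-3, and 13.0 and 15.4% in full-length NRPD1. At all 3 the groups were in the same order without overlap, and none passed the 10 points of a call in either comparison. The rule fixed nrpd1-3 below full-length NRPD1, and the study examined these loci for silencing already known to need Pol IV. Their windows and this order are therefore a description and not a test. NRPD1ΔCTD was separated in this direction from nrpd1-3 in 94.5% of the 672 windows and from full-length NRPD1 in 76.5%. Over all covered windows these shares were 18% and 17.7%.

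By the product text of the annotation, a window was found in 1.80% of the 26705 protein-coding genes with a covered window. The share was 4.92% (15 of 305) for defensin-like and cysteine-rich genes, 4.17% (9 of 216) for disease resistance genes, 3.38% (122 of 3611) for genes without a known function, 2.42% (6 of 248) for cytochrome P450 genes, 2.18% (14 of 641) for F-box genes and 2.17% (6 of 277) for transmembrane proteins. It was 1.67% (23 of 1375) for kinases, 1.27% (1 of 79) for photosystem or chlorophyll genes, 1.06% (10 of 941) for zinc finger genes and 0.75% (3 of 400) for ribosomal proteins. Genes whose product text names a transposase or reverse transcriptase, a group chosen after the values were seen, had 7.84% (8 of 102). These shares are not tested, and genes differ in length and in covered windows.

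The highest level left in nrpd1-3 was in an intron of AT5G52070, upstream of its coding exon window, with 59.2 and 61.8% in NRPD1ΔCTD, 45.7 and 40.7% in nrpd1-3, and 58.7 and 63.0% in full-length NRPD1. ADR1-L1 (AT4G33300), a helper of immune receptors, followed with 45.4 and 46.5% in NRPD1ΔCTD, 39.7 and 28.4% in nrpd1-3, and 54.5 and 53.6% in full-length NRPD1, and AT5G15685, annotated as a mutator transposase, with 33.8 and 33.2% in NRPD1ΔCTD, 23.6 and 23.5% in nrpd1-3, and 37.8 and 39.0% in full-length NRPD1. The first 2 of these windows overlap a non-coding RNA gene. Of all windows 300 (44.6%) had less than 2% in nrpd1-3 and 72 (10.7%) had 10% or more.

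At the threshold, the windows just inside were in AT1G18050, AT3G55860 and AT1G60720 and the ones just outside in AT1G56100, AT2G14510 and AGL23. AT1G60720 had 12.0 and 8.51% in NRPD1ΔCTD, 2.87 and 3.66% in nrpd1-3, and 13.1 and 13.6% in full-length NRPD1. AT2G14510 had 11.7 and 11.1% in NRPD1ΔCTD, 1.47 and 0.404% in nrpd1-3, and 8.98 and 12.6% in full-length NRPD1, a difference of -9.97 points. The limit cuts through a continuous range, and 272 of the 672 windows had a difference of less than 15 points.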

How the data were processed

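Whole-genome bisulfite libraries (TruSeq DNA methylation kit) were processed by the authors with bcl2fastq 2.16.0.10, cutadapt 1.9.1 and Bismark 0.16.1 against TAIR10, with duplicates removed, and written with methylKit 0.9.5. The deposited files give, for each CHH cytosine with at least 5 reads, the coverage as a count of reads and the methylated and unmethylated shares as a percent. All listed positions were cytosines in the RefSeq copy of TAIR10. Genes are RefSeq's (Araport annotation), so classes can differ from the first TAIR10 annotation, and no transposon annotation was used.

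Methylated reads were coverage times percent, summed over 300 bp windows. Groups were compared by logistic regression with a likelihood-ratio test per window and Benjamini-Hochberg adjustment over all 278507 covered windows, whereas the study used sliding windows, the SLIM correction and Col-0 as its reference. limma 3.58.1 and a quasi-binomial F test were alternatives. The tests were also run on simulated counts without added spread between libraries, so that run cannot decide between their counts of calls. Class was set at the window midpoint, with coding exon before untranslated exon before intron. Named windows were, per class, the 5 with the largest difference, 6 genes with most windows (a tie broken by the summed difference), the 5 largest losses and gains of NRPD1ΔCTD, listed genes with a window, and those at the threshold or highest in nrpd1-3. Windows, lists and rules were chosen with earlier results of these data known. Depth was 192342372 to 225676590 CHH reads per library, a count of bases that are not independent molecules.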

Additional observations from a re-analysis of the deposited data

Results flagged for a closer look

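Read depth, which no comparison of the report tests, was higher over the 672 windows where a transgene was present. They took a mean of 0.251% of a library's CHH reads in NRPD1ΔCTD, against 0.164% in nrpd1-3, and 0.291% in full-length NRPD1. The median window had 1.45 times the depth-scaled reads in NRPD1ΔCTD that it had in nrpd1-3, and both NRPD1ΔCTD libraries lay above both nrpd1-3 libraries in 480 windows (71.4%), against 13.7% of the other covered windows in protein-coding genes. In nrpd1-3 the median window had 0.585 times the reads of full-length NRPD1, and the ratio was 1.02 in the other windows. Pol IV-dependent windows outside protein-coding genes had ratios of 1.5 and 0.573. The part of this in the methylation levels was not tested beyond the alternative that keeps cytosines listed in all 6 libraries.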

How the results depend on the processing

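limma on log2 ratios, limma with a replicate block and the quasi-binomial F test called 0 windows higher than nrpd1-3 and 0 lower than full-length NRPD1. This held for the windows chosen by the rule and for all covered windows. Unadjusted p was under 0.05 in 338, 330 and 280 of the 344 chosen windows at least 10 points above nrpd1-3. It was under 0.05 in 91, 72 and 93 of the 189 at least 10 points below full-length NRPD1. These windows were picked for that difference, and the share over all covered windows was not measured. limma on arcsine levels called 285 of the chosen windows higher and 5 lower (1.18 and 0.0244% of all covered windows). Libraries share only a replicate number, and correlations of same-numbered deviations over all covered windows were 0.0101, -0.0017 and 0.00249. With the replicate block in the logistic regression 344 and 185 windows were called.

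The number of windows was 387 with at least 10 reads per cytosine, 253 with a rule of 20 points and 341 without windows of over 20% repeated sequence. The count higher than nrpd1-3 was 190 with at least 10 reads, 221 with at least 20 cytosines, 215 with a rule of 20 points and 148 without repeated windows, and 562 or 110 when a call needed 5 or 20 points. The count lower than full-length NRPD1 was 100 with at least 10 reads, 99 with at least 20 cytosines and 117 without repeated windows, and 382 or 18 when a call needed 5 or 20 points.

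The NRPD1ΔCTD level was 18.5% with at least 20 cytosines, 25.3% with a rule of 20 points, 19.2% on a grid moved by 150 bp, 18.3% with each cytosine equal, 16.6% with each window equal, 19.3% for windows wholly inside the gene, 18.5% in the second libraries of windows chosen on the first, 18.4% over cytosines listed in all 6 libraries and 16.9% without repeated windows. The regained share was 69.5% with a rule of 20 points, 62.0% with each window equal and 63.4% without repeated windows. Its difference from windows outside protein-coding genes was -4.16 points with at least 20 cytosines, -2.87 with a rule of 20 points, -2.10 on the moved grid, -2.19 for windows wholly inside, -2.31 and -4.04 when chosen on the first or second libraries and measured in the others, -4.69 with each window equal, -3.79 over shared cytosines and -1.18 without repeated windows. It kept its sign throughout, and the cause of the changes was not tested.

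Leaving out each library in turn gave 662 to 695 windows, 333 to 355 higher than nrpd1-3, 184 to 200 lower than full-length NRPD1, an NRPD1ΔCTD level of 18.5 to 19.2%, a regained share of 64.6 to 67.3% and a difference from windows outside genes of -3.55 to -2.78 points. Of the values of single named windows under the alternatives, 301 lost a call, 70 gained one, and 49 changed sign without being called in either setting. An example is the EXT10 window at chr5:2040901-2041200, where NRPD1ΔCTD minus full-length NRPD1 was -0.257 points, and 7.16 points without the first full-length library. No called difference changed sign. Alternatives using shared cytosines, repeats and arcsine levels were chosen after seeing the data. With 2 libraries a group, exact tests cannot reach 0.05, and windows with few listed cytosines have the least certain levels.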
